A study of Mus musculus with 6 samples.

Results

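DNA replication and mitosis genes are the genes whose products license and copy the genome in S phase and then separate its copies in mitosis. The set comprised 37 named genes, taken as the rows of the deposited table that carry these gene symbols, with the probe set of highest mean over the 6 arrays for each symbol. All 37 were found among the 21950 gene symbols measured, 36 under the listed symbol and Cdk1 under an older name. The genes were described in 3 groups by role, namely 13 S-phase genes, 19 mitotic genes and 5 regulators of the preceding G1 phase.

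The series compared whole lungs of mouse embryos at E14.5, a mid-gestation stage when the airways branch. There were 3 arrays of mutant lungs, labelled Shh-cre:Foxp1flox/flox:Foxp4flox/flox, and 3 arrays of control lungs, labelled ShhCre, from 3 embryos per group by the design text, on a mixed C57BL/6, 129X1 and 129S1 background. Both groups carried the Cre driver, and in the lung Shh is expressed by the epithelium, so the forkhead transcription factor genes Foxp1 and Foxp4 were targeted there and not in the mesenchyme, vessels or blood that share the sample. The labels do not say whether controls carried floxed alleles.

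Cells enter S phase when cyclin D and cyclin E kinases release E2F transcription factors from the retinoblastoma family, and E2F factors then switch on genes for origin licensing and nucleotide supply. Mitotic genes follow later under the DREAM complex, MYB and FOXM1, through CHR elements and CCAAT boxes in their promoters. In the embryonic lung, growth of the epithelial tips and the surrounding mesenchyme keeps both programmes active in many cells.

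Short motifs tied to these 2 programmes were counted in the promoter sequences of the members. Of the 37 genes, 29 matched an entry of the RefSeq promoter table (build GRCm38.p6), which spans 250 bases before to 50 after each start. E2F-type motifs (TTTGGCGC, TTTCGCGC or GCGGGAA, either strand) were present in 6 of 12 S-phase genes and 1 of 15 mitotic genes (6.7%), against 6.1% of all 27025 genes in that table. A CHR-type TTTGAA together with a CCAAT on either strand was present in 1 of 12 S-phase genes (8.3%) and 11 of 15 mitotic genes (73.3%), against 9.0% of all genes. A match to these short motifs is a description of the letters and does not show binding. The 150 bases upstream of the start are shown for 4 genes chosen after the matches were seen, with every match in capitals: Rrm2, which had the lowest log2 change of the members; Mcm6, an E2F-type promoter; and Cdk1 and Cdc20, which are CHR and CCAAT promoters.
Rrm2: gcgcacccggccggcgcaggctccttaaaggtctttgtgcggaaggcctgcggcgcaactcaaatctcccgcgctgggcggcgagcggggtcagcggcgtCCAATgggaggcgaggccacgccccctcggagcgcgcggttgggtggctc
Mcm6: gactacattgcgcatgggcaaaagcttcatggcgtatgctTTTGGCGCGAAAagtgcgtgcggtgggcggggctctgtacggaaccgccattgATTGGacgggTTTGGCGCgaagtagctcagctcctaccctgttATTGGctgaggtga
Cdk1: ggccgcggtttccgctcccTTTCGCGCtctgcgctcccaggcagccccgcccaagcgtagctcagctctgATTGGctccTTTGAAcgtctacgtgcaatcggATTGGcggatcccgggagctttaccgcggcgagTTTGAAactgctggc
Cdc20: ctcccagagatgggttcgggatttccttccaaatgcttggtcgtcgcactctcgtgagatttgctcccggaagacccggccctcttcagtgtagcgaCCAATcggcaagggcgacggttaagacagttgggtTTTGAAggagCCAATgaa
Cdk1 is also the mitotic gene that held an E2F-type match. These stretches lie at chr12:24708104-24708253 on the plus strand for Rrm2, and on the minus strand at chr1:128359706-128359855 for Mcm6, chr10:69352913-69353062 for Cdk1 and chr4:118437344-118437493 for Cdc20. In Mcm6 the first capital run holds 2 overlapping E2F-type matches on opposite strands, the earlier of which begins 110 bases before the start. In Cdk1 and Cdc20 the CHR-type match nearest to the start begins 15 and 18 bases before it. The Rrm2 stretch held a CCAAT 50 bases before the start and none of the E2F-type or CHR-type letters searched.

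Levels are on the log2 scale of the authors' RMA normalization, 1 value for each probe set and array. Array medians ran from 8.21 to 8.23 on this scale, and correlations between arrays over all probe sets from 0.995 to 0.998. Of the targeted genes, Foxp4 fell to 9.80 ± 0.03 in mutants, against 10.21 ± 0.05 in controls (SD, n = 3 each, limma adjusted p = 0.0190), and Foxp1 measured 10.64 ± 0.07 in mutants and 10.91 ± 0.03 in controls (adjusted p = 0.0884). A probe set outside the deleted exons, or RNA from cells without Cre, would dilute such a difference, which limits what they say about the genotypes. Xist and the Y-linked genes gave a female pattern in control 3 and a male pattern in the other 5 arrays, which leaves the sexes unequal between mutants and controls. The lung regulator Nkx2-1 measured 11.11 ± 0.02 in mutants and 11.06 ± 0.07 in controls.

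No replication or mitosis gene passed the test between Foxp1 and Foxp4 mutant lungs and controls. Of the 37, 0 rose and 0 fell (limma across all 28815 probe sets, adjusted p under 0.05), while 0.642% of all gene symbols were called, 0.301% as lower in mutants, and 0.774% of all probe sets. At an unadjusted p under 0.05 there were 6 of 37, 1 higher and 5 lower in mutants, where 11.7% of all gene symbols reached that level and 7.24% were lower. The median log2 change, mutant minus control, was -0.02 over the 37 members, the same to 2 decimals as the -0.02 over all genes. In whole lung RNA, fewer cells of a type and less RNA per cell cannot be told apart.

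The data bounded these changes closely. The members were measured with a median within-group SD of 0.04, against 0.07 over all genes. They were also brighter, with a median level of 11.89 against 8.52, and the SDs were not compared at matched levels. The 95% intervals of the 37 log2 changes lay between -0.35 and 0.39, which is 0.784-fold to 1.31-fold of the control level. Of the 37 intervals 26 lay wholly within 0.2 of 0, as did 10486 of those of all 21950 gene symbols. A larger change confined to the epithelium would appear here only in proportion to that tissue's share of the RNA.

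**Figure D1:**
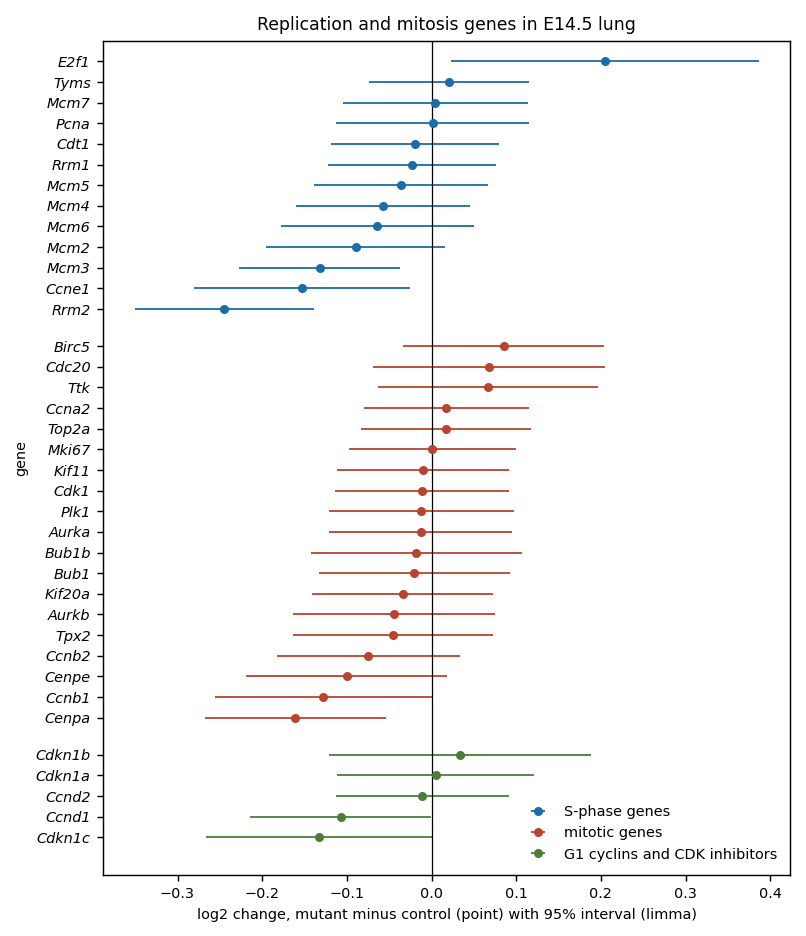
Log2 change of each member, mutant minus control, as a point with its 95% interval from limma (3 mutant and 3 control arrays), in 3 groups of S-phase genes, mitotic genes and G1 regulators, each sorted by its change. Rrm2 lies lowest at -0.24 and E2f1 highest at 0.20, while Mki67 and Pcna lie at 0.

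Among the 13 S-phase genes, the lowest relative to controls was Rrm2, the regulatory subunit of ribonucleotide reductase, which makes the deoxynucleotides for DNA synthesis. Rrm2 measured 12.01, 11.97 and 12.01 in the 3 mutants, against 12.19, 12.28 and 12.25 in the 3 controls. All mutants lay below all controls, by a log2 change of -0.24 (SE 0.05, adjusted p = 0.0793 by limma), or 0.844-fold with a 95% interval of 0.784 to 0.908. In the authors' deposited table, made with a test that the sources do not name, Rrm2 was lower with a q-value of 1.49%, and 2 of the 37 members had a q under 5%, against 1.61% of all gene symbols. The limma call depended on the fit: Rrm2 passed with a trended and robust prior (adjusted p = 0.00834), with array weights (0.00714) and when dim probe sets were left out (0.0477 and 0.0401). Without each array in turn its log2 change stayed between -0.27 and -0.22, with -0.24 without control 3, and its adjusted p by limma ran from 0.0831 to 0.342.

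The partners of Rrm2 in nucleotide supply lay closer to the control level. Rrm1, the catalytic subunit, measured 12.65 ± 0.03 in mutants and 12.67 ± 0.0018 in controls (SD, n = 3 each), a log2 change of -0.02 with an interval of -0.12 to 0.08. Tyms, thymidylate synthase, had a log2 change of 0.02 with an interval of -0.07 to 0.12. The intervals of Rrm1 and Tyms both lay above the point estimate of Rrm2, although the difference between the genes was not tested.

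The helicase subunits Mcm2 to Mcm7, which are loaded as a ring at licensed origins, had 5 of 6 members below 0 and a median log2 change of -0.06, where 60.7% of all genes lay below 0 with a median of -0.02. Groups did not overlap for 2 of the 6, against 18.3% of all gene symbols. Mcm3 measured 11.20, 11.17 and 11.19 in mutants, against 11.32, 11.32 and 11.32 in controls. The groups were separate and tight, with a log2 change of -0.13 (SE 0.04), yet the adjusted p was 0.268 by limma, and the authors' deposited table gave a q-value of 3.70%. Mcm2 measured 11.75, 11.75 and 11.71 in mutants, against 11.78, 11.87 and 11.83 in controls, again without overlap (log2 change -0.09, limma adjusted p = 0.485). The groups overlapped for Mcm4, Mcm5, Mcm6 and Mcm7, whose log2 changes were -0.06, -0.04, -0.06 and 0.0045. Without control 1 that of Mcm6 was -0.04.

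Other S-phase genes were close to their control level. Cdt1, the loader of the helicase, had a log2 change of -0.02 with an interval of -0.12 to 0.08. Pcna, the sliding clamp of the replication fork, measured 12.81, 12.92 and 12.91 in mutants, against 12.88, 12.90 and 12.85 in controls. Its lowest and its highest values were both mutants, and the log2 change was 0.0012 with an interval of -0.11 to 0.12. Another Pcna probe set gave a log2 change of 0.0069.

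The regulators of S-phase entry in this group ran in opposite directions. E2f1, the transcription factor that activates S-phase genes, measured 10.36, 10.48 and 10.16 in mutants, against 10.14, 10.13 and 10.11 in controls. All mutants lay above all controls, but mutant 3 lay close to the highest control, and the log2 change of 0.20 (SE 0.08) had an adjusted p of 0.373 by limma. Without mutant 2, the highest, the E2f1 change was 0.13, and over all arrays left out in turn it ran to 0.29. Ccne1, cyclin E1, which partners Cdk2 at S-phase entry, measured 11.08, 11.18 and 11.14 in mutants, against 11.24, 11.24 and 11.37 in controls. Every mutant lay below every control, with control 3 the highest. The difference on the log2 scale was -0.15 (SE 0.05, adjusted p = 0.338 by limma), ranging from -0.18 to -0.11 as each array was left out.

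**Figure D2:**
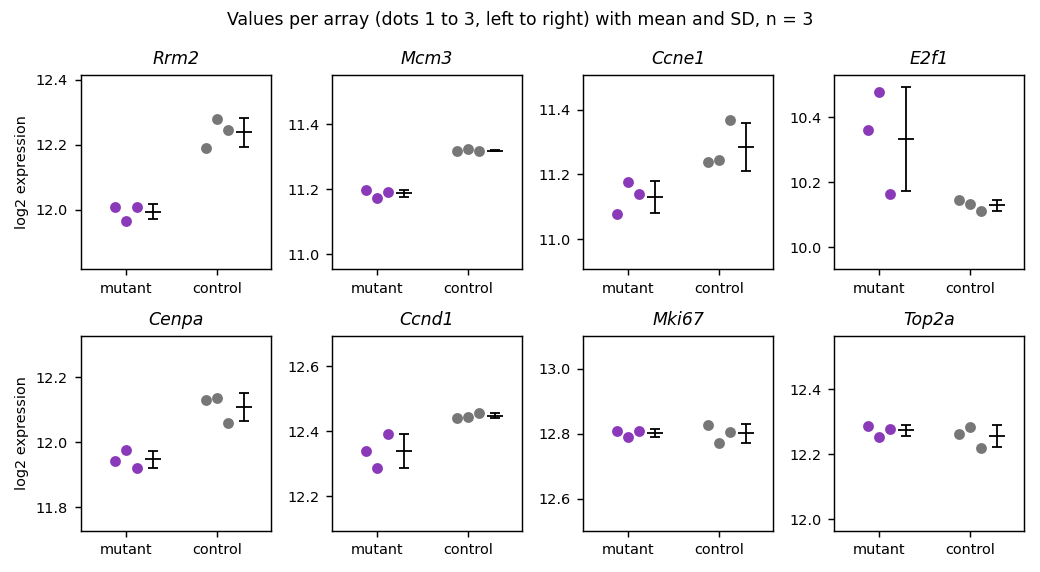
Log2 expression of 8 members in each array (dots, replicates 1 to 3 from left to right) with the mean and SD of each group (n = 3), mutants left of controls; each panel spans 0.6 log2 units around its own centre. Rrm2, Mcm3, Ccne1, Cenpa and Ccnd1 are lower in every mutant than in any control, E2f1 is higher, and Mki67 and Top2a overlap.

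As a group, 9 of 13 S-phase genes lay below 0 (69.2%, against 60.7% of all genes), with a median log2 change of -0.04. Mutant and control values did not overlap for 6 of them, 4 lower and 2 higher in mutants. Over all gene symbols 18.3% did not overlap, with 11.4% lower and 6.93% higher in mutants. Tyms was the other gene whose mutants all lay above controls.

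The 19 mitotic genes had log2 changes from -0.16 to 0.09. Those of the S-phase genes ran from -0.24 to 0.20, with Rrm2 and E2f1 at the 2 ends. The proliferation marker Mki67, a coat protein that keeps mitotic chromosomes apart, measured 12.81, 12.79 and 12.81 in mutants, against 12.83, 12.77 and 12.81 in controls. The mutant values lay inside the range of the controls, and the log2 change of 0.0008 had a 95% interval of -0.10 to 0.10, or 0.935-fold to 1.07-fold. Top2a, the topoisomerase that untangles sister chromatids, measured 12.29, 12.25 and 12.28 in mutants, against 12.26, 12.29 and 12.22 in controls, with a log2 change of 0.02 and overlapping groups. Its dimmer probe sets, at group means of 5.61 to 6.12, gave log2 changes of 0.16 and 0.02.

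Mitotic entry is driven by a kinase and its cyclins. Cdk1, the mitotic kinase, measured 12.57, 12.59 and 12.63 in mutants, against 12.64, 12.59 and 12.59 in controls, overlapping with a log2 change of -0.01 (interval -0.11 to 0.09). Ccnb1, cyclin B1, measured 12.45, 12.31 and 12.45 in mutants, against 12.58, 12.52 and 12.49 in controls. All mutants lay below all controls, with mutant 2 the lowest, at a log2 change of -0.13 (SE 0.06, adjusted p = 0.425 by limma), or -0.08 without mutant 2. Another 2 probe sets annotated to Ccnb1 gave log2 changes of -0.11 and -0.09, and probe sets that name the same gene may share sequence, so they are not independent. Ccnb2, cyclin B2, was lower by a log2 change of -0.07 without overlap (adjusted p = 0.564 by limma), or -0.05 without mutant 1, and Ccna2, cyclin A2, had a log2 change of 0.02.

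The member of the mitotic group with the lowest value relative to controls was Cenpa, the histone H3 variant that marks centromeres. Cenpa measured 11.94, 11.98 and 11.92 in mutants, against 12.13, 12.14 and 12.06 in controls. The groups did not overlap, and the log2 change was -0.16 (SE 0.05), with a limma adjusted p of 0.239 and a q-value of 10.2% in the authors' deposited table. Hjurp, the chaperone that deposits Cenpa at centromeres, is no member but had the smallest p of the further kinetochore and spindle genes, at 11.19, 11.10 and 10.99 in mutants, against 11.45, 11.32 and 11.38 in controls. Its log2 change was -0.29 (SE 0.06, limma adjusted p = 0.130), so both the centromere histone and its chaperone lay lower in every mutant than in any control without passing the test. Groups did not overlap for 16 of the 49 further kinetochore and spindle genes, 11 of them lower in mutants. Over all gene symbols 18.3% did not overlap, with 11.4% lower, and a joint change of Cenpa and Hjurp was not tested.

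Kinetochore, spindle and checkpoint genes otherwise lay near 0. Cenpe, a kinetochore kinesin, was lower without overlap (log2 change -0.10), whereas Birc5, the survivin subunit of the chromosomal passenger complex, was higher without overlap (0.09). Neither passed (limma adjusted p = 0.486 and 0.548), and without mutant 2 the Birc5 change was 0.04. The checkpoint genes Bub1 and Bub1b had log2 changes of -0.02 each, and Ttk, the kinase upstream of them, had 0.07, or 0.04 without mutant 1, 0.04 without control 3 and 0.11 without control 1. Cdc20, the activator of the anaphase-promoting complex, whose CHR and CCAAT promoter is shown above, also had 0.07, with mutant 2 highest at 11.33. The Cdc20 change was 0.02 without mutant 2 and 0.12 without mutant 3. The mitotic kinases Aurka, Aurkb and Plk1 lay at -0.01, -0.04 and -0.01, the spindle motor Kif11 at -0.0099, the cytokinesis motor Kif20a at -0.03 and the spindle assembly factor Tpx2 at -0.05, all with overlapping groups.

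In all, 13 of 19 mitotic genes lay below 0 (68.4%), with a median log2 change of -0.01. Groups did not overlap for 5 of them, 4 lower and 1 higher in mutants, against 18.3% of all gene symbols (11.4% lower and 6.93% higher). The 95% intervals of the mitotic genes lay between -0.27 and 0.20, or 0.831-fold to 1.15-fold, against 0.784-fold to 1.31-fold for the S-phase genes. Rrm2 and E2f1 set the ends of the S-phase range. The median interval width was 0.22 for the mitotic genes and 0.21 for the S-phase genes. At an unadjusted p under 0.05 there was 1 mitotic gene of 19, Cenpa, and there were 4 S-phase genes of 13, where 11.7% of all gene symbols reached that level.

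Averages within each array separated mutants from controls for the 13 S-phase genes, but not for the mitotic genes or the other replication genes counted below. The 13 include Rrm2, which had the largest change of them, and the averages were not computed without it. The separation therefore cannot be read apart from Rrm2. The mean deviation of the 13 S-phase genes from their own means was -0.03, -0.0004 and -0.03 in the 3 mutants, against 0.02, 0.03 and 0.02 in the 3 controls. For the 19 mitotic genes it was 0.0009, -0.0039 and -0.03 in mutants, against 0.03, 0.01 and -0.01 in controls, and these ranges overlapped. S-phase minus mitotic deviation was -0.03, 0.0036 and -0.0046 in mutants, against -0.01, 0.02 and 0.03 in controls, also overlapping. For 20 other licensing and origin-firing genes the mean deviation was -0.03, 0.0095 and -0.0046 in mutants, against 0.05, 0.03 and -0.05 in controls. For 36 other fork, polymerase and nucleotide genes it was -0.03, -0.0055 and -0.01, against 0.03, 0.04 and -0.02. Over all genes it was 0.0068, -0.02 and -0.02, against 0.0044, 0.0086 and 0.02. Mutants and controls overlapped in both of these further sets and over all genes. Separation was not particular to the S-phase genes. Averages over all 37 members were also separate, at -0.01, -0.01 and -0.03 in mutants, against 0.03, 0.02 and -0.0017 in controls. Those of the mesenchymal, smooth muscle and neural markers described below were separate too, with smooth muscle higher in mutants and the others lower. Control 1 held the highest value of the 6 arrays for 14 of the 37 members, and mutant 3 the lowest for 12.

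**Figure D3:**
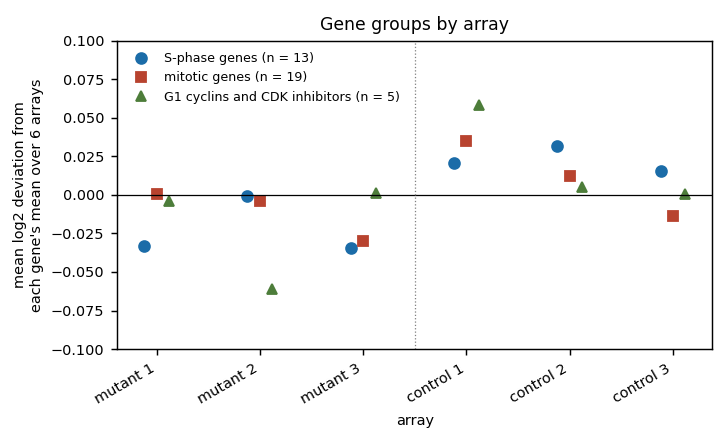
Mean log2 deviation of each gene group from its genes' means over the 6 arrays, by array, for 13 S-phase genes (circles), 19 mitotic genes (squares) and 5 G1 regulators (triangles), with mutants left of the dotted line. All points lie within 0.1 of 0, and the mitotic genes of mutants 1 and 2 lie between those of control 2 and control 3.

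Over the 6 arrays the median Pearson correlation between pairs was 0.25 among S-phase genes, 0.17 among mitotic genes and 0.11 between S-phase and mitotic genes. These values come from arrays that share normalization and from differences of a few hundredths of a log2 unit, and are given as description only.

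The 5 regulators of G1 comprised cyclins that start the cycle and inhibitors that hold it. Ccnd1, cyclin D1, measured 12.34, 12.29 and 12.39 in mutants, against 12.44, 12.44 and 12.46 in controls. Every mutant lay below every control, by a log2 change of -0.11 (SE 0.05, unadjusted p = 0.0499 and adjusted p = 0.424 by limma). Ccnd2, cyclin D2, had a log2 change of -0.01, and a dimmer probe set of Ccnd2 had -0.12.

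Of the inhibitors, Cdkn1c (p57), a maternally expressed imprinted gene that marks cells leaving the cycle, measured 11.44, 11.33 and 11.48 in mutants, against 11.61, 11.51 and 11.51 in controls. The mutants were again below the controls, by -0.13 on the log2 scale (SE 0.06, adjusted p = 0.428 by limma), or -0.09 without mutant 2. Cdkn1a (p21), the inhibitor induced by p53, measured 8.41, 8.40 and 8.42 in mutants, against 8.44, 8.32 and 8.44 in controls, with overlapping groups and a log2 change of 0.0051 (interval -0.11 to 0.12). Cdkn1b (p27) had a log2 change of 0.03, whereas its dimmer probe set had -0.13, so the direction was not settled. Neither the cyclins nor the inhibitors passed, and Ccnd1 and Cdkn1c, which act against each other in the cycle, both lay lower in mutants.

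Further genes of these pathways were counted next, with 0 of 179 called by limma in either direction and 14 at an unadjusted p under 0.05, 3 higher and 11 lower in mutants. Over all gene symbols 11.7% reached that level and 7.24% were lower, both larger shares than the 14 and 11 of these 179 genes. Of 20 other licensing and origin-firing genes 14 lay below 0, with Orc5, an origin recognition subunit, at a log2 change of 0.12 and the GINS subunit Gins4 at -0.10 (limma adjusted p = 0.374 and 0.458). Of 36 other fork, polymerase and nucleotide genes 25 lay below 0, led by Chaf1b, a histone chaperone of replicating chromatin, at -0.15 (0.368). Of 24 other genes of G1 to S control 18 lay below 0, with cyclin D3 (Ccnd3) at -0.15 (0.241) and Skp2, the ubiquitin ligase subunit that targets p27, at -0.10 (0.381).

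Among later stages, 18 of 30 other mitotic entry, checkpoint and exit genes and 30 of 49 other kinetochore, spindle, condensin and cytokinesis genes lay below 0. The condensin subunit Ncapd2 was higher in every mutant, at 11.63, 11.63 and 11.60, against 11.40, 11.43 and 11.45 in controls (log2 change 0.19, limma adjusted p = 0.131). Cdca3, a trigger of mitotic entry, was also higher without overlap (log2 change 0.17, adjusted p = 0.184 by limma). In the authors' deposited table the q-values of Ncapd2 and Cdca3 were 1.10% and 2.52%. Nuf2, a subunit of the kinetochore NDC80 complex, had a log2 change of -0.14.

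Of 20 p53 target genes, listed beside Cdkn1a, 13 lay below 0 and 0 passed by limma. The 3 with the smallest p were all lower, namely the junction and apoptosis gene Perp (log2 change -0.29, adjusted p = 0.0979), the receptor gene Eda2r (-0.19, 0.151) and the apoptosis effector Bax (-0.13, 0.370). The authors' deposited table gave these 3 genes q-values of 4.67%, 3.70% and 18.8%. Medians of the 6 further lists lay between -0.03 and -0.0074, on both sides of the -0.02 of all genes.

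**Figure D4:**
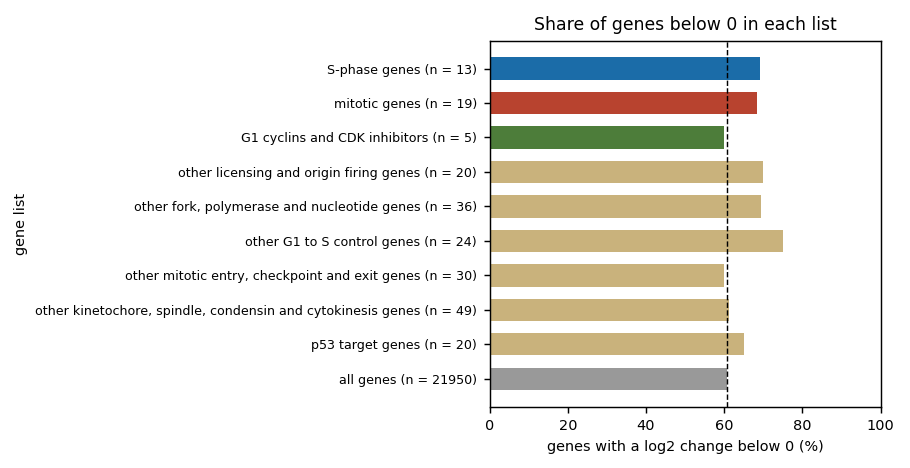
Percent of the genes in each list whose log2 change was below 0, that is lower in mutants, for the 3 groups of members, 6 further lists and all 21950 gene symbols (dashed line, 60.7%). The lists range from 60.0% to 75.0%.

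Markers of the tissues in the sample differed by amounts of a similar size. Of 14 epithelial markers 11 lay above 0 (median log2 change 0.05) and 0 passed, and of 13 mesenchymal markers 11 lay below 0 (median -0.04) and 0 passed. Mean deviations of the epithelial markers were 0.05, 0.05 and 0.0011 in mutants, against 0.03, -0.07 and -0.06 in controls, and those of the mesenchymal markers were 0.02, -0.07 and -0.05 in mutants, against 0.04, 0.03 and 0.03 in controls. Erythroid markers, from dividing precursors and red cells in the vessels, varied most between mutants, at -0.21, 0.19 and -0.12, against 0.07, -0.01 and 0.09 in controls. The lists of endothelium, white blood cells and smooth muscle had medians of 0.02, 0.04 and 0.06, and those of neural, mesothelial and thymus genes -0.12, -0.15 and -0.10. Among the mesothelial genes, the keratin gene Krt19 fell in mutants (log2 change -0.42, limma adjusted p = 0.0382). The part of these shifts in the values of the replication and mitosis genes was not tested.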

How the data were processed

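Whole E14.5 lungs were profiled on 6 arrays, 3 mutant and 3 control. The authors deposited RMA values on the log2 scale (RMA per the submitters' processing notes), and the sources used here name no array type, build or annotation version. Both deposited tables hold the same log2 values for all 28815 probe sets. The annotated table also holds the authors' comparison, per the file headers a signed fold, a difference score, a p-value without adjustment and a q-value given in percent.

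Symbols were updated by RefSeq accession, gene ID, then name, with a reference table of assembly GRCm38.p6 (25528 of 28815 probe sets have a symbol). Mutants minus controls were fitted by limma 3.58.1 (lmFit, then eBayes; R 4.3.3) without covariates or a brightness filter. Tests were 2-sided, and p-values of all 28815 probe sets were adjusted together by Benjamini-Hochberg. No detection values were used, and 3 arrays per group limit the precision. The fit was tested on simulated data. Between 9 and 24 values were identical for any pair of arrays, so none was a copy.

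The members, lists and tests were chosen with earlier results of these data known, so lists are described by counts and medians and not tested. Named genes were all 37 members, with values in every array for those at an unadjusted p under 0.05 without overlap and for 9 well-known markers, and up to 3 genes with the smallest p of each further list. The labels state no pairing of mutants with controls. Deviations of same-numbered mutants and controls correlated at -0.194, 0.039 and -0.185 over probe sets, which cannot settle whether embryos were paired. Alternatives were a replicate block, another prior, filters on dim probe sets, other normalizations, array weights, other probe sets, 1 probe set per symbol, a threshold of 0.1 and leaving out each array. Of the marker and pathway genes listed, Ahsp and Kifc1 were not matched and are not analysed here.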

Additional observations from a re-analysis of the deposited data

How the results depend on the processing

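Of the 37 members, 0 passed in the fit as reported. The count of S-phase genes called became 1 (Rrm2) with the trended and robust prior, without probe sets below the 30th percentile or below the median, and at a threshold of 0.1. It was 2 (Rrm2 and Mcm3) with array weights, a fit that stopped before full convergence. Over all probe sets, the trended prior called 247 of 28815, and the 2 filters called 247 of 20170 and 155 of 14408. The threshold of 0.1 called 360 of 28815 and array weights 1748 of 28815. The counts of members were not tested against these shares. Array weights also called 1 mitotic gene (Cenpa, log2 change -0.19, adjusted p = 0.0252) and 6 of the 179 further genes, and moved the S-phase median to -0.0631. The further genes called numbered 2 with the trended prior (Hjurp and Ncapd2), 1 at the threshold of 0.1 (Perp) and 1 without mutant 3 (Tnfrsf10b, log2 change 0.46). No G1 regulator passed in any fit run. The replicate block rests on replicate numbers that the labels do not call pairs. With this block 0 members and 7 probe sets in all passed, and the limma adjusted p of Rrm2 was 0.271. All probe sets called numbered 223 in the fit as reported. As each array was left out, that count ran from 11 without mutant 2 to 152 without control 1, with 18 without control 2, 102 without control 3, 136 without mutant 1 and 147 without mutant 3. The causes of these shifts were not tested.

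Signs changed only for members near 0, none of them called. With quantile normalization Cdkn1a, Mki67 and Pcna had log2 changes of -0.0040, -0.0194 and -0.0152, and with array weights Cdk1, Pcna and Top2a had 0.0058, -0.0114 and -0.0088. The dimmer probe set of Cdkn1b gave -0.13. As each array was left out, log2 changes ran from -0.0324 to 0.0101 for Aurka, -0.0433 to 0.0058 for Bub1, -0.0409 to 0.0212 for Bub1b, -0.0294 to 0.0097 for Ccnd2, -0.0268 to 0.0060 for Cdk1, -0.0353 to 0.0256 for Cdkn1a, -0.0230 to 0.0772 for Cdkn1b, -0.0287 to 0.0094 for Kif11, -0.0230 to 0.0340 for Mcm7, -0.0142 to 0.0136 for Mki67, -0.0173 to 0.0374 for Pcna, -0.0307 to 0.0132 for Plk1 and -0.0006 to 0.0319 for Top2a. The S-phase median ran from -0.05 to -0.02 and the mitotic median from -0.03 to -0.0030 in those fits.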
